A study of Rattus norvegicus with 12 samples.

Results

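The genes that carry lipoprotein cholesterol into ovarian cells and hand it out again were followed in whole rat ovaries from 12 animals. The list held 9 genes: the receptors Vldlr, Scarb1 and Cd36, the lipases Lpl and Lipc, the apolipoproteins Apoe and Apoa1, and the efflux transporters Abca1 and Abcg1. Members were the genes of the deposited expression table that carry exactly these names. This gave 8 of the 19730 genes in the table, because no gene in it was named Cd36. All animals were wild-type Sprague Dawley females at postnatal week 15. The Control group (n = 4 libraries) was untreated and ate standard food. The PCOS group (n = 4), a model of polycystic ovary syndrome, received letrozole, which blocks the aromatase that makes oestrogens, for 30 days with a high-fat diet. The PCOS-MV group (n = 4) received the same and then mogroside V (MV), a sweet glycoside of monk fruit, for another 30 days. The PCOS and PCOS-MV animals had been picked for vaginal smears that stayed in metestrus and diestrus. Letrozole and the diet were given together, so their parts cannot be told apart, and the estrous stage at collection was not given in the sources used here, nor was what the PCOS group received while the PCOS-MV group had MV.

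Steroid-making cells of the ovary draw cholesterol from circulating lipoproteins. High-density lipoprotein docks on Scarb1 (SR-BI), which lets its cholesteryl esters pass into the cell without the particle being swallowed, while Vldlr takes up particles rich in triglyceride and apolipoprotein E. Lipases free the fatty acids of the particle at the vessel wall, and Cd36 binds fatty acids and modified lipoproteins. In the other direction, Abca1 loads cholesterol onto lipid-poor apolipoprotein A-I, the product of Apoa1, and Abcg1 passes it to mature high-density lipoprotein. Abca1 and Abcg1 are known targets of the liver X receptors, which sense oxidised forms of cholesterol.

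The 8 genes lay on 6 chromosomes and spanned a wide range of levels. Positions are those of the deposited table, whose genome build is not given in the sources used here. Scarb1 (ENSRNOG00000000981, chr12:36694960-36761455, plus strand) had a mean of 999.5 FPKM (fragments per kilobase of transcript, scaled to the mapped fragments of the library) over the 12 libraries and ranked 19 among the 19730 genes. Apoe (ENSRNOG00000018454, chr1:80612895-80617057, minus strand) ranked 33. Abca1 (ENSRNOG00000018126, chr5:69857771-69983015, minus strand) ranked 1049 and Vldlr (ENSRNOG00000027491, chr1:245237736-245269205, plus strand) ranked 2657. Abcg1 (ENSRNOG00000001158, chr20:9743269-9840489, plus strand) and Lpl (ENSRNOG00000012181, chr16:22537056-22561496, minus strand) ranked 5432 and 6428. Apoa1 (ENSRNOG00000045679, chr8:50525091-50526875, plus strand) ranked 11464. Lipc (ENSRNOG00000060338, chr8:77272570-77398248, minus strand) ranked 15902 with a mean of 0.198 FPKM and was the 1 member under the minimum of 1 FPKM for the test.

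Promoter sequence bears on these genes because Abca1 is regulated through a liver X receptor element close to its start. The 250 bases before the RefSeq start are printed for Abca1 (GRCr8, chr5:72596474-72596723, minus strand) and Vldlr (GRCr8, chr1:234240436-234240685, plus strand). They are single examples of an efflux gene and an uptake gene, not a comparison of the classes. Entries were matched by symbol for 5 of the 9 listed genes. Capitals in the Abca1 window mark a GC box (GGGCGG), an E-box (CACGTG) and a direct repeat, GGTTANNNNCGGTCA, read on the opposite strand. Capitals in the Vldlr window mark 3 GC boxes, all read on the opposite strand as CCGCCC. The matched window of Cd36, also an uptake gene, held 0 GC boxes and 0 E-boxes.
Abca1: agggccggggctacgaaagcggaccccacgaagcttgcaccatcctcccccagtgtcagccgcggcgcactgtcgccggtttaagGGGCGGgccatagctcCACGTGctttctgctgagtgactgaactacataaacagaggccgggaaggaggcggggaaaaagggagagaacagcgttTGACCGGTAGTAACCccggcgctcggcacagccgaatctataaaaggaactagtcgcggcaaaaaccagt
Vldlr: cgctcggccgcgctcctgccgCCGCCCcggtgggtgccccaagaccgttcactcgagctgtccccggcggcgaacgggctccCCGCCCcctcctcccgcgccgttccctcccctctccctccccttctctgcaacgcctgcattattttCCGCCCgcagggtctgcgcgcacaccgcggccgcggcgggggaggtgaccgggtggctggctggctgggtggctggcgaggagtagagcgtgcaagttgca
The direct repeat has the layout of a liver X receptor element, with 4 bases between its arms, and its first base lies 70 bases before the start of Abca1. Its letters were spelled after the Abca1 window had been read, so its presence there is no finding. Both strands of 33469 RefSeq promoter windows of this length were searched. That spelling was held by 2 windows (0.00598%), that of Abca1 among them, so its rarity is no finding either. An E-box was held by 5.59% and a GC box by 30.5%. The first base of the E-box lies 149 bases before the Abca1 start. None of these motifs overlapped another in the windows shown, and a match of letters is not a measurement of binding.

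Abca1 and Abcg1, the efflux transporters, were higher in PCOS than in Control and lower in PCOS-MV than in PCOS. Abca1 read 27.9, 43.1, 35.8 and 35.9 FPKM in the Control libraries, 68.6, 94.8, 109.8 and 77.5 FPKM in PCOS, and 38.7, 50.0, 54.5 and 60.6 FPKM in PCOS-MV. The PCOS libraries lay above all the others, and PCOS-MV overlapped Control. The group means were 35.7 ± 6.18, 87.7 ± 18.3 and 51.0 ± 9.23 FPKM (SD, n = 4 each). On the scale of log2(FPKM + 1), used for every fold change here, Abca1 rose by 1.27 (SE 0.17, adjusted p = 0.000924, limma) in PCOS against Control. Between PCOS-MV and PCOS it fell by 0.77 (SE 0.18, adjusted p = 0.0145, limma). The exact two-sided permutation p was 0.0286 in both comparisons, the smallest that 4 libraries against 4 allow. Both comparisons use the same 4 PCOS libraries, so their changes of sign are not independent of each other.

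Abcg1 followed a similar course at a lower level. It read 8.57, 9.15, 10.7 and 9.87 FPKM in Control, 18.6, 16.4, 22.8 and 19.4 FPKM in PCOS, and 9.37, 8.79, 13.9 and 13.5 FPKM in PCOS-MV. All PCOS libraries were above the libraries of the other groups. Means were 9.56 ± 0.905, 19.3 ± 2.64 and 11.4 ± 2.67 FPKM (SD, n = 4 each), a PCOS level 2.02 times that of Control. The log2 change was 0.94 (SE 0.11, adjusted p = 0.000406, limma) in PCOS against Control and -0.73 (SE 0.16, adjusted p = 0.0126, limma) in PCOS-MV against PCOS. The FPKM ratio of Abca1 to Abcg1 ranged from 3.26 to 4.70 in Control, from 3.69 to 5.77 in PCOS and from 3.92 to 5.69 in PCOS-MV, so its ranges overlapped in all groups. Marker genes of theca and interstitial cells, the androgen-making cells around follicles, mostly changed between groups in the directions of the transporters, but not library by library. In PCOS replicates 1 to 4 their summed level was 3390, 2299, 1889 and 2616 FPKM, the reverse of the order for Abca1. Of 7 tested, 4 were higher and 1 was lower in PCOS than in Control, and 4 were lower in PCOS-MV than in PCOS. By group the sum was 275 to 434 FPKM in Control, 1889 to 3390 FPKM in PCOS and 263 to 391.6 FPKM in PCOS-MV. Cyp17a1 (means of 34.6, 1190.4 and 37.4 FPKM) and Insl3 (5.70, 1032.0 and 7.89 FPKM) carried nearly all of that, the other 5 markers averaging 293, 326 and 293 FPKM in sum. Their part in the transporter values was not tested, and in bulk tissue fewer cells of a type and less RNA per cell cannot be told apart.

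**Figure D1:**
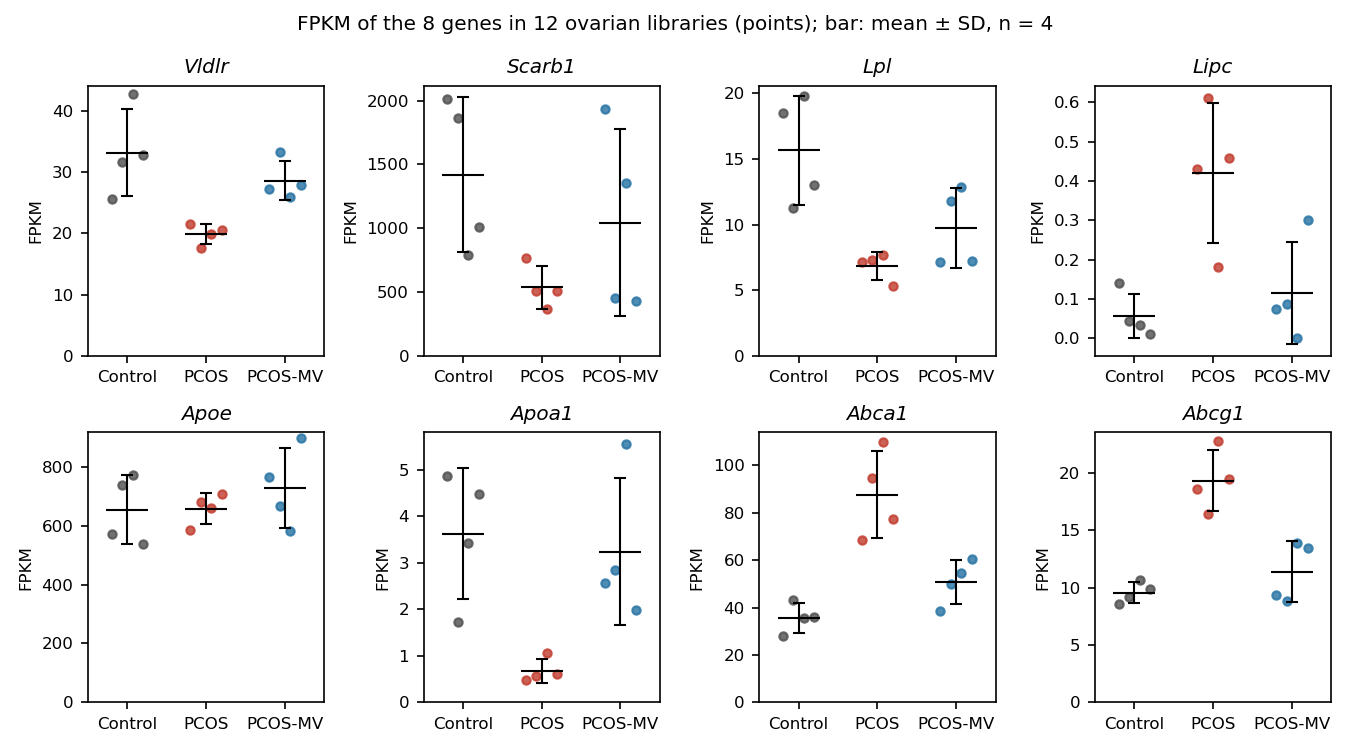
FPKM (vertical axes, 1 panel a gene, each with its own scale) of the 8 genes in each Control, PCOS and PCOS-MV library (points), with the group mean and SD (bars). PCOS points lie above the other groups for Abca1 and Abcg1 and below both for Vldlr and Apoa1, while Apoe overlaps throughout.

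Scarb1, the receptor for high-density lipoprotein, was lower in PCOS than in Control and split within the PCOS-MV group. Its levels were 2013, 1866, 793 and 1008 FPKM in Control and 769, 508, 367 and 505 FPKM in PCOS. In PCOS-MV replicates 1 to 4 it read 1932, 451, 1352 and 431 FPKM. Replicates 1 and 3 of PCOS-MV thus lay within the Control range, and replicates 2 and 4 within the PCOS range. The means were 1419.8 ± 609, 537 ± 168 and 1042 ± 733 FPKM (SD, n = 4 each). Against Control, PCOS had a Scarb1 log2 change of -1.34 (SE 0.34, adjusted p = 0.0188, limma), and the ranges did not overlap. The call was lost without Control replicate 2 (-1.17, adjusted p = 0.0519, limma), without PCOS replicate 3 (-1.18, adjusted p = 0.0530, limma) and in 1 model over all 12 libraries (adjusted p = 0.0632, limma). The difference between PCOS-MV and PCOS was 0.70 (95% interval -0.44 to 1.85, adjusted p = 0.340, limma) and did not pass the threshold.

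Cyp11a1 showed the same split of the PCOS-MV libraries as Scarb1. It was picked for its likeness to Scarb1 over these libraries, so the shared split is no separate finding. Cyp11a1, the enzyme that cuts the side chain of cholesterol at the first step of steroid synthesis, was the gene whose profile was most like that of Scarb1 among the tested genes with a symbol. Its level was 2967, 2596, 1307 and 1906 FPKM in Control, 1201, 931, 672 and 1069 FPKM in PCOS, and 2632, 757, 1808 and 772 FPKM in PCOS-MV. The same PCOS-MV replicates, 2 and 4, were the low ones. Cyp11a1 changed by -1.14 in PCOS against Control (adjusted p = 0.0161, limma), and its difference between PCOS-MV and PCOS was 0.45 (adjusted p = 0.466, limma). The summed level of the 6 luteal cell markers found, which Star and Cyp11a1 dominate, was 3493 to 6013 FPKM in Control and 1472 to 2716 FPKM in PCOS. In PCOS-MV the sum was 5011 and 5056 FPKM in replicates 1 and 3 and 2528 and 2546 FPKM in replicates 2 and 4. The sum includes Cyp11a1, which was picked for its likeness to Scarb1, so the split of the sum is no separate finding either. Of the 6 markers, 3 were lower in PCOS than in Control (Star, Cyp11a1 and Ptgfr) and 2 were higher (Lhcgr and Parm1), and in PCOS-MV against PCOS 2 were higher and 1 was lower. Not every luteal marker followed the split. Star in PCOS-MV replicates 2 and 4 (1632 and 1589 FPKM) stood above every PCOS library. In PCOS-MV replicates 1 to 4 Ptgfr read 50.3, 60.2, 173 and 81.5 FPKM. Lhcgr read 97.8, 15.2, 57.5 and 26.0 FPKM there, and was low in replicates 2 and 4. The part of luteal tissue in the Scarb1 values was not tested.

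**Figure D2:**
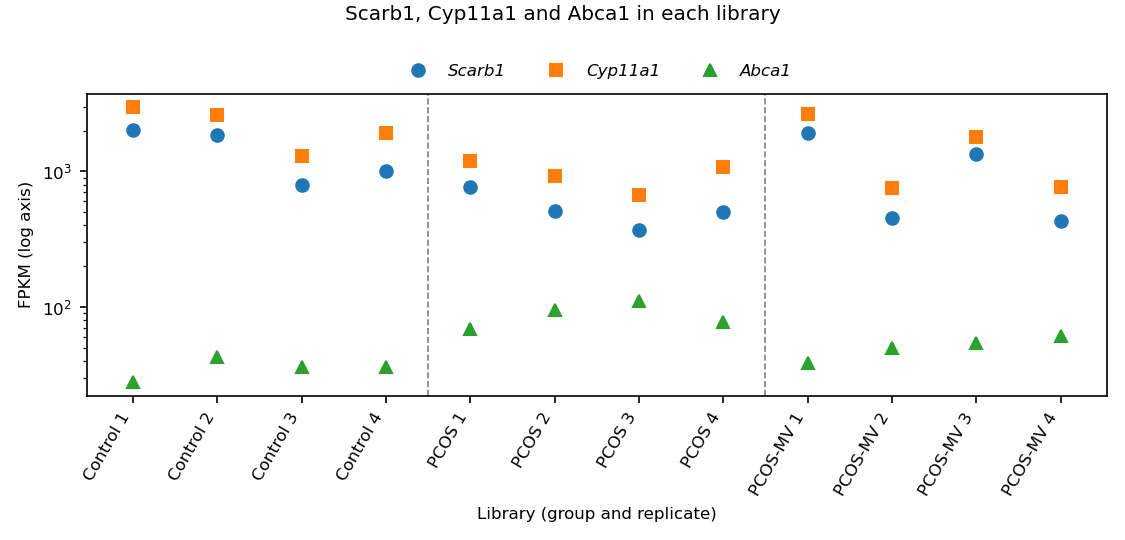
FPKM (log axis) of Scarb1, Cyp11a1 and Abca1 in each of the 12 libraries, in order of group and replicate. PCOS-MV replicates 2 and 4 are low for Scarb1 (451 and 431 FPKM) and Cyp11a1 (757 and 772 FPKM), while replicates 1 and 3 lie in the Control range of both genes.

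Vldlr, the receptor for triglyceride-rich particles, was lower in PCOS and higher again in PCOS-MV, with less spread than Scarb1. It read 25.6, 31.7, 42.8 and 32.8 FPKM in Control, 21.6, 17.7, 19.9 and 20.6 FPKM in PCOS, and 27.2, 33.3, 26.0 and 28.0 FPKM in PCOS-MV. Every PCOS library was below every other library. The mean of 33.2 ± 7.15 FPKM in Control stood against 19.96 ± 1.66 FPKM in PCOS and 28.6 ± 3.22 FPKM in PCOS-MV (SD, n = 4 each). The log2 change of Vldlr in PCOS against Control was -0.69 (SE 0.14, adjusted p = 0.0081, limma). In PCOS-MV it was 0.50 above PCOS (SE 0.10, adjusted p = 0.00696, limma). PCOS-MV differed from Control by -0.19 (95% interval -0.54 to 0.16, adjusted p = 0.713, limma).

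The FPKM ratio of Scarb1 to Abca1 sets an importer beside an exporter within each library. It was 72.0, 43.3, 22.1 and 28.1 in Control, 11.2, 5.36, 3.34 and 6.52 in PCOS, and 49.9, 9.03, 24.8 and 7.12 in PCOS-MV. All Control ratios were above all PCOS ratios. This had to be so, because both genes already had separate ranges in these groups, in opposite directions, and it is no further result. In PCOS-MV, replicates 1 and 3 fell in the Control range and replicates 2 and 4 in the PCOS range, the split already seen for Scarb1 alone.

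Lpl, lipoprotein lipase, was lower in PCOS than in Control. Its levels were 18.5, 11.2, 19.8 and 13.1 FPKM in Control, 7.12, 7.34, 7.66 and 5.31 FPKM in PCOS, and 7.14, 11.8, 12.9 and 7.20 FPKM in PCOS-MV. Control stood clear of PCOS, and PCOS-MV reached into both ranges. Lpl dropped by 1.06 in log2 terms between Control and PCOS (SE 0.19, adjusted p = 0.00348, limma). The difference of 0.42 between PCOS-MV and PCOS (95% interval -0.04 to 0.88, adjusted p = 0.160, limma) did not pass. Nor did that of -0.64 between PCOS-MV and Control (95% interval -1.19 to -0.09, adjusted p = 0.556, limma), the threshold being set over all genes tested.

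Adipocyte markers were set beside Lpl, a gene abundant in fat. Of the tested markers, Adipoq, Cfd and Fabp4 were lower in PCOS than in Control. So was Cidec, which passed the minimum only through the Control libraries (mean 3.03 FPKM, against 0.109 in PCOS and 0.127 in PCOS-MV). In the other comparison 1, Fabp4, was higher in PCOS-MV than in PCOS. The summed level of the 8 markers found was 108, 35.1, 112 and 59.1 FPKM in Control replicates 1 to 4, the same order of libraries as for Lpl. In PCOS the sum was 16.0, 28.6, 19.2 and 21.4 FPKM, not the order of Lpl, which was lowest in replicate 4 and highest in replicate 3. It was 18.6, 48.5, 46.7 and 23.0 FPKM in PCOS-MV, where Lpl was also higher in replicates 2 and 3. Fabp4 carried that difference (3.63, 33.8, 29.3 and 12.2 FPKM in PCOS-MV), and without it the other 7 markers summed to 26.3 to 88.5 FPKM in Control, 14.2 to 25.8 FPKM in PCOS and 10.7 to 17.4 FPKM in PCOS-MV, with replicate 2 at 14.7 FPKM. Adiponectin (Adipoq), which is made by fat cells, ranged from 3.68 to 26.0 FPKM in Control, from 0.654 to 2.95 FPKM in PCOS and from 0.845 to 1.70 FPKM in PCOS-MV. Lep and Retn were at 0 in at least 1 PCOS library. The part of fat tissue in the Lpl values was not tested.

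Lipc, hepatic lipase, was close to the lower end of the table. It read 0.140, 0.0429, 0.0343 and 0.0120 FPKM in Control, 0.432, 0.611, 0.182 and 0.458 FPKM in PCOS, and 0.0746, 0.0885, 0 and 0.302 FPKM in PCOS-MV. All PCOS values were above all Control values (exact two-sided permutation p = 0.0286), and 1 PCOS-MV library reached the PCOS range. With no minimum on the level, the log2 change was 0.42 (SE 0.09, adjusted p = 0.0183, limma) in PCOS against Control and -0.35 (SE 0.11, adjusted p = 0.0767, limma) in PCOS-MV against PCOS. PCOS replicate 2, the highest for Lipc, was also the 1 PCOS library with a reading of the liver gene Alb, 4.33 FPKM against 0 in the others. Alb read 0.0580, 0.0216, 0.0296 and 0.0680 FPKM in Control. Apart from the 1 reading in PCOS replicate 2, both genes were near 0 in these groups, and the part of liver RNA in the Lipc values was not tested.

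The apolipoproteins differed from each other. Apoe, a ligand of Vldlr, was abundant and showed no difference past the threshold. It read 572, 737, 773 and 536 FPKM in Control, 586, 679, 660 and 707 FPKM in PCOS, and 766, 665, 583 and 898 FPKM in PCOS-MV. All the ranges overlapped. The difference between PCOS and Control was 0.02 (95% interval -0.30 to 0.34, adjusted p = 0.926, limma), a value whose sign turned when 1 library was left out (lowest -0.07). Between PCOS-MV and PCOS it was 0.13 (95% interval -0.20 to 0.46, adjusted p = 0.549, limma).

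Apoa1, which encodes the acceptor for cholesterol leaving through Abca1, was low everywhere and lowest in PCOS. Its levels were 4.87, 1.72, 3.44 and 4.49 FPKM in Control, 0.484, 0.570, 1.06 and 0.608 FPKM in PCOS, and 2.57, 2.84, 5.55 and 1.99 FPKM in PCOS-MV. The PCOS libraries were below all others, and the other groups overlapped. Apoa1 changed by -1.41 in log2 terms from Control to PCOS (SE 0.24, adjusted p = 0.00317, limma) and was 1.28 higher in PCOS-MV than in PCOS (SE 0.23, adjusted p = 0.00533, limma). The constant of 1 FPKM makes these values smaller than the ratio of means, since the PCOS mean of 0.680 ± 0.257 FPKM was 0.187 of the Control mean of 3.63 ± 1.41 FPKM. Apoa1 passed the minimum through the Control and PCOS-MV libraries. It is made in quantity by the liver. Of the hepatocyte markers only Tf and Cyp2e1 were high enough to test. Tf was higher and Cyp2e1 lower in PCOS than in Control, and Tf was lower in PCOS-MV than in PCOS. The summed level of the 9 found, nearly all Tf, was 64.4 to 70.6 FPKM in Control, 192 to 391.7 FPKM in PCOS and 65.1 to 103.6 FPKM in PCOS-MV. Alb read at most 0.0680 FPKM in Control, 4.33 FPKM in PCOS (replicate 2) and 0.0143 FPKM in PCOS-MV. The part of liver RNA in the Apoa1 values was not tested.

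Counted together, 6 of the 7 members tested passed the threshold of an adjusted p under 0.05 between PCOS and Control, 2 higher and 4 lower. Among all 13430 genes tested, 27.4% passed, 11.9% higher and 15.6% lower. The ranges of the same 6 members did not overlap, as for 31.0% of all genes. Apoa1 is among these only because its Control and PCOS-MV levels carried it over the minimum, and with a minimum of 5 FPKM, which leaves it out, 5 of 6 members passed in PCOS against Control and 3 of 6 in PCOS-MV against PCOS. The median size of the change, regardless of sign, was 1.06 on the log2 scale over the 7 members and 0.22 over all genes. Between PCOS-MV and PCOS, 4 members passed, Vldlr and Apoa1 higher and Abca1 and Abcg1 lower, where 25.7% of all genes passed (14.3% higher, 11.4% lower) and 30.0% had ranges that did not overlap. The median size there was 0.70 for the members and 0.21 for all genes. A required change of 2-fold left 4 and 1 of these calls. The members were chosen with earlier results of these data known, so these counts and medians describe the members and do not test them as a set.

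No member differed between PCOS-MV and Control past the threshold, where 0.00745% of all genes, 1 gene, passed (limma), and no tested member had ranges that did not overlap, as 5.10% of all genes did. At an unadjusted p under 0.05, 2 of 7 members (Lpl, lower, and Abca1, higher) passed, against 8.50% of all genes. Abca1 was 0.50 above Control (95% interval 0.12 to 0.88, adjusted p = 0.521, limma, exact permutation p = 0.0571). Abcg1 was 0.21 above (95% interval -0.15 to 0.56, adjusted p = 0.700, limma), Apoa1 differed by -0.13 (95% interval -0.83 to 0.57, adjusted p = 0.908, limma) and Apoe by 0.15 (95% interval -0.26 to 0.56, adjusted p = 0.808, limma). The interval of Scarb1, -1.91 to 0.63 around -0.64 (adjusted p = 0.732, limma), was the widest of the 7. For Scarb1 the interval takes in a difference as large as the one between PCOS and Control (-1.34). For Abcg1 and Apoa1 the intervals exclude differences of the size seen between PCOS and either other group, but not smaller ones.

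**Figure D3:**
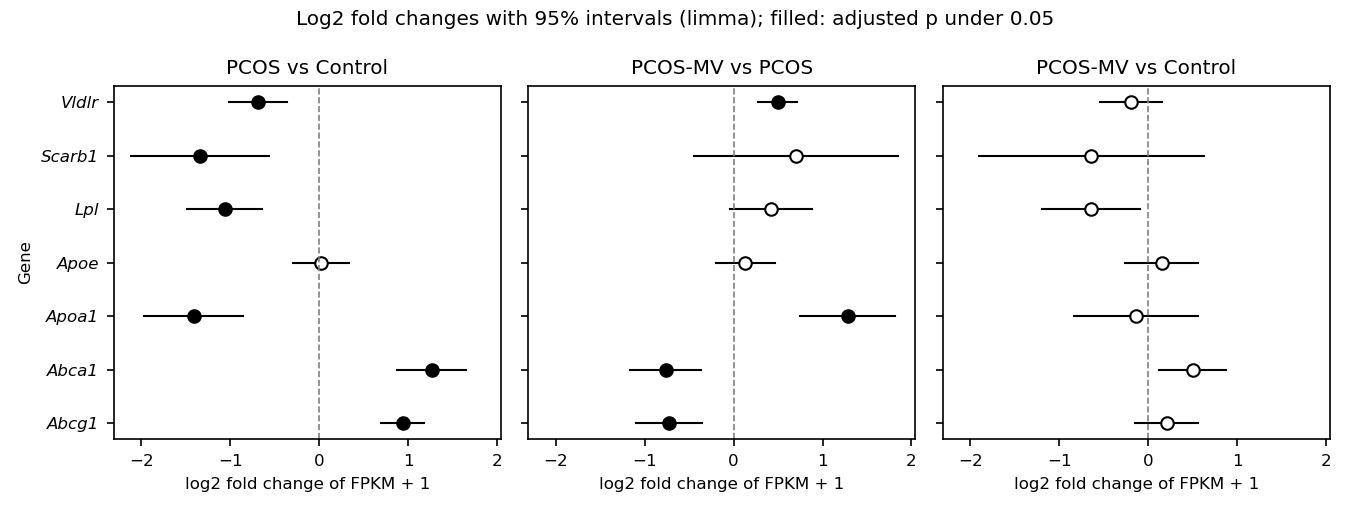
Difference in log2(FPKM + 1) between groups (horizontal axis) with 95% interval from limma for the 7 tested genes (rows), in each of the 3 comparisons. In PCOS against Control, 6 intervals exclude 0 (Vldlr, Scarb1, Lpl and Apoa1 below, Abca1 and Abcg1 above), and in PCOS-MV against PCOS 4 do.

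Among tested genes with a symbol, the most similar profiles were found by the mean absolute difference of centred log2(FPKM + 1) over the 12 libraries, where 0 is an identical profile. For Vldlr these were Fnbp1l (0.0937) and Vopp1 (0.0989). For Scarb1 the next after Cyp11a1 (0.172) was Nptx2 (0.266), which also read high in PCOS-MV replicate 1 (72.6 FPKM) and low in replicate 4 (13.5 FPKM). Abca1 was nearest to RT1-M3-1 (0.162) and Sod3 (0.181), an extracellular superoxide dismutase, and Abcg1 to Cygb (0.126) and Olfml3 (0.127). All of these last 4 were higher in PCOS than in Control and lower in PCOS-MV than in PCOS. Abca1 and Abcg1 lay 0.218 apart. Over all tested genes, Abcg1 was in place 28 of those nearest to Abca1, and Abca1 in place 177 of those nearest to Abcg1. Lpl was nearest to Chac1 (0.189) and Etfbkmt (0.192), Apoa1 to Klhl2 (0.210) and Gadd45b (0.210), and Apoe to Col6a1 (0.109) and Zgrf1 (0.111). The libraries, groups and scaling are shared by all genes, so these distances describe profiles only.

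Around the members, 6 lists of partner genes were read in the same fit: 90 genes listed, 89 found and 67 tested. Between PCOS and Control 11 were higher and 20 lower, and between PCOS-MV and PCOS 23 were higher and 10 lower, with 0 called between PCOS-MV and Control (limma), where 13 had an unadjusted p under 0.05. Of all genes tested, 11.9% were higher and 15.6% lower in PCOS than in Control, and 14.3% were higher and 11.4% lower in PCOS-MV than in PCOS. The lists, like the members, were chosen with earlier results of these data known, so their counts and medians do not test them as sets.

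Among partners and inhibitors of the lipases, 5 of 9 tested were lower and 4 did not pass in PCOS against Control, and 7 were higher and 2 did not pass in PCOS-MV against PCOS. The list medians were -0.81 and 0.94 on the log2 scale, beside -0.03 and 0.03 over all genes. Sdc1, a heparan sulphate proteoglycan that can bind lipoproteins, averaged 136.8 ± 42.0 FPKM in Control, 12.2 ± 1.22 FPKM in PCOS and 83.5 ± 34.6 FPKM in PCOS-MV (SD, n = 4 each). It fell by 3.34 in PCOS (adjusted p = 1.68e-05, limma) and rose by 2.59 in PCOS-MV (adjusted p = 0.000427, limma). Gpihbp1, which carries Lpl to the luminal side of capillaries, averaged 27.0 ± 11.5, 4.08 ± 1.62 and 19.7 ± 17.2 FPKM. PCOS-MV replicate 3 stood at 45.5 FPKM, and without it the PCOS-MV mean was 11.2 ± 0.956 FPKM (SD, n = 3) with a log2 change of 1.31 from PCOS (adjusted p = 0.00664, limma). Gpihbp1 fell by 2.43 (adjusted p = 0.0008, limma) and then rose by 1.80 (adjusted p = 0.0210, limma), the rise being lost without PCOS replicate 1, 2 or 4 (highest adjusted p = 0.0553, limma). Angptl4, which inhibits Lpl, was singled out after its values were seen: 62.7 ± 11.5, 27.2 ± 4.32 and 70.5 ± 4.22 FPKM, with log2 changes of -1.17 (adjusted p = 0.00094, limma) and 1.35 (adjusted p = 0.000204, limma). So the lipase, its carrier and its inhibitor were all lower in PCOS than in Control. Endothelial markers moved as well: 5 of 8 were lower and 1 was higher in PCOS than in Control, 3 were higher and 1 lower in PCOS-MV than in PCOS, and their sum was 141 to 180 FPKM in Control, 106 to 141 FPKM in PCOS and 128 to 167 FPKM in PCOS-MV. Their part in the Gpihbp1 values was not tested.

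Few of the other uptake receptors and their regulators passed. Of 11 tested, 1 was higher in PCOS than in Control, Lrp1, which takes up apolipoprotein E remnants (107.9 ± 21.6 against 149.0 ± 16.1 FPKM, log2 change 0.48, adjusted p = 0.0430, limma). That call was lost without any 1 of 6 of the 8 libraries (Control replicates 1, 3 and 4 and PCOS replicates 1, 2 and 4; highest adjusted p = 0.101, limma). In PCOS-MV against PCOS the scavenger receptor Msr1 was higher (0.76, adjusted p = 0.0281, limma), and Stab1 (-0.44, adjusted p = 0.00537, limma) and the receptor chaperone Lrpap1 (-0.23, adjusted p = 0.0397, limma) were lower. The call of Msr1 was lost without PCOS replicate 1, 2 or 3 or PCOS-MV replicate 2 or 3 (highest adjusted p = 0.0708, limma), and that of Lrpap1 without PCOS replicate 1, 2 or 4 or PCOS-MV replicate 2, 3 or 4 (highest adjusted p = 0.105, limma).

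Efflux partners and regulators were mixed: 2 of 11 were higher and 2 lower in PCOS than in Control, and 1 was higher and 3 lower in PCOS-MV than in PCOS. Nr5a1, a nuclear receptor of steroid-making cells, averaged 53.9 ± 4.94, 112.1 ± 7.74 and 67.2 ± 14.3 FPKM, with log2 changes of 1.04 (adjusted p = 7.52e-05, limma) and -0.75 (adjusted p = 0.00786, limma). Cyp27a1, which makes the oxysterol 27-hydroxycholesterol, rose by 0.94 (adjusted p = 0.00192, limma) and fell by 0.50 (adjusted p = 0.0163, limma). Abca7, a close relative of Abca1, went the other way from Abca1, with log2 changes of -1.05 in PCOS (adjusted p = 0.000292, limma) and 0.96 in PCOS-MV (adjusted p = 0.0144, limma). Ch25h, which makes another oxysterol, fell by 0.64 in PCOS (adjusted p = 0.00977, limma). Abcb4, a phospholipid transporter, was lower in PCOS-MV than in PCOS (log2 change -0.91, adjusted p = 0.0136, limma). The liver X receptor genes did not pass in either comparison: Nr1h2 averaged 29.5, 31.5 and 31.8 FPKM (adjusted p = 0.369 and 0.915, limma), and Nr1h3 averaged 5.03, 5.52 and 9.43 FPKM (adjusted p = 0.362 and 0.0620, limma).

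Among apolipoproteins and genes of particle remodelling, 1 of 8 was higher and 1 lower in PCOS than in Control, and 2 were higher and 2 lower in PCOS-MV than in PCOS. Lcat, which esterifies cholesterol on high-density lipoprotein, averaged 1.01 ± 0.298, 2.69 ± 0.620 and 1.07 ± 0.232 FPKM, with log2 changes of 0.87 (adjusted p = 0.0048, limma) and -0.83 (adjusted p = 0.00425, limma). Apoo fell by 0.71 (adjusted p = 0.000924, limma) and rose by 0.48 (adjusted p = 0.00624, limma). P4hb, a subunit of the complex that lipidates apolipoprotein B, was higher in PCOS-MV than in PCOS (0.72, adjusted p = 0.00102, limma), and Pltp, the phospholipid transfer protein, lower (-0.64, adjusted p = 0.0252, limma). The Pltp call was lost without PCOS replicate 1, 2 or 4 or PCOS-MV replicate 2 or 4 (highest adjusted p = 0.0703, limma).

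Lysosomal release and storage of cholesterol held 15 tested genes, of which 3 were higher and 7 lower in PCOS than in Control, and 7 were higher and 1 lower in PCOS-MV than in PCOS. Star, which moves cholesterol into mitochondria, averaged 2219 ± 432, 716 ± 306 and 2054 ± 605 FPKM, with log2 changes of -1.70 (adjusted p = 0.00241, limma) and 1.57 (adjusted p = 0.00742, limma). Star in PCOS-MV replicates 2 and 4 (1632 and 1589 FPKM) stood above every PCOS library. Soat1, which esterifies cholesterol for storage, averaged 234 ± 34.8, 141 ± 17.1 and 294 ± 79.6 FPKM, with log2 changes of -0.72 (adjusted p = 0.00465, limma) and 1.02 (adjusted p = 0.00795, limma). Gramd1b, a sterol carrier between plasma membrane and endoplasmic reticulum, fell by 1.13 (adjusted p = 0.00041, limma) and rose by 0.76 (adjusted p = 0.0189, limma), the rise being lost without PCOS replicate 2 or 3 (highest adjusted p = 0.0558, limma). Osbpl1a, an oxysterol-binding protein, rose by 0.60 (adjusted p = 0.000573, limma) and fell by 0.65 (adjusted p = 0.0013, limma). Npc2, which hands cholesterol out of the lysosome, was higher in PCOS than in Control (0.46, adjusted p = 0.0411, limma), a call that held in 1 of the 8 fits that each left out a library (highest adjusted p = 0.103, limma).

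Fatty acid partners of Cd36 moved in both directions. In PCOS against Control 4 of 13 were higher and 5 lower, and in PCOS-MV against PCOS 5 were higher and 2 lower. Fabp3, a fatty acid binding protein, averaged 38.95 ± 5.70, 344 ± 51.4 and 44.6 ± 34.3 FPKM, with log2 changes of 3.11 (adjusted p = 5.13e-06, limma) and -3.30 (adjusted p = 0.00346, limma). Ppara, a nuclear receptor for fatty acids, rose by 1.35 (adjusted p = 9.15e-05, limma) and fell by 1.45 (adjusted p = 0.00115, limma). Fabp4, which is also among the adipocyte markers above, went the other way, from 18.0 to 2.15 and 19.7 FPKM, with log2 changes of -2.49 (adjusted p = 0.00107, limma) and 2.37 (adjusted p = 0.0186, limma). The fatty acid activating enzyme Acsl3 fell by 1.39 (adjusted p = 0.00109, limma) and rose by 1.18 (adjusted p = 0.0395, limma), and Fabp5 fell by 0.82 (adjusted p = 0.0172, limma) and rose by 1.20 (adjusted p = 0.0232, limma). The rise of Fabp4 was lost without PCOS replicate 3 (highest adjusted p = 0.0532, limma), and those of Acsl3 and Fabp5 without any 1 of 5 libraries each, PCOS replicates 1 to 3 among them (highest adjusted p = 0.0995 and 0.0615, limma). The fall of Fabp5 was lost without PCOS replicate 2 (adjusted p = 0.0504, limma) and in 1 model over all 12 libraries (adjusted p = 0.0668, limma).

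**Figure D4:**
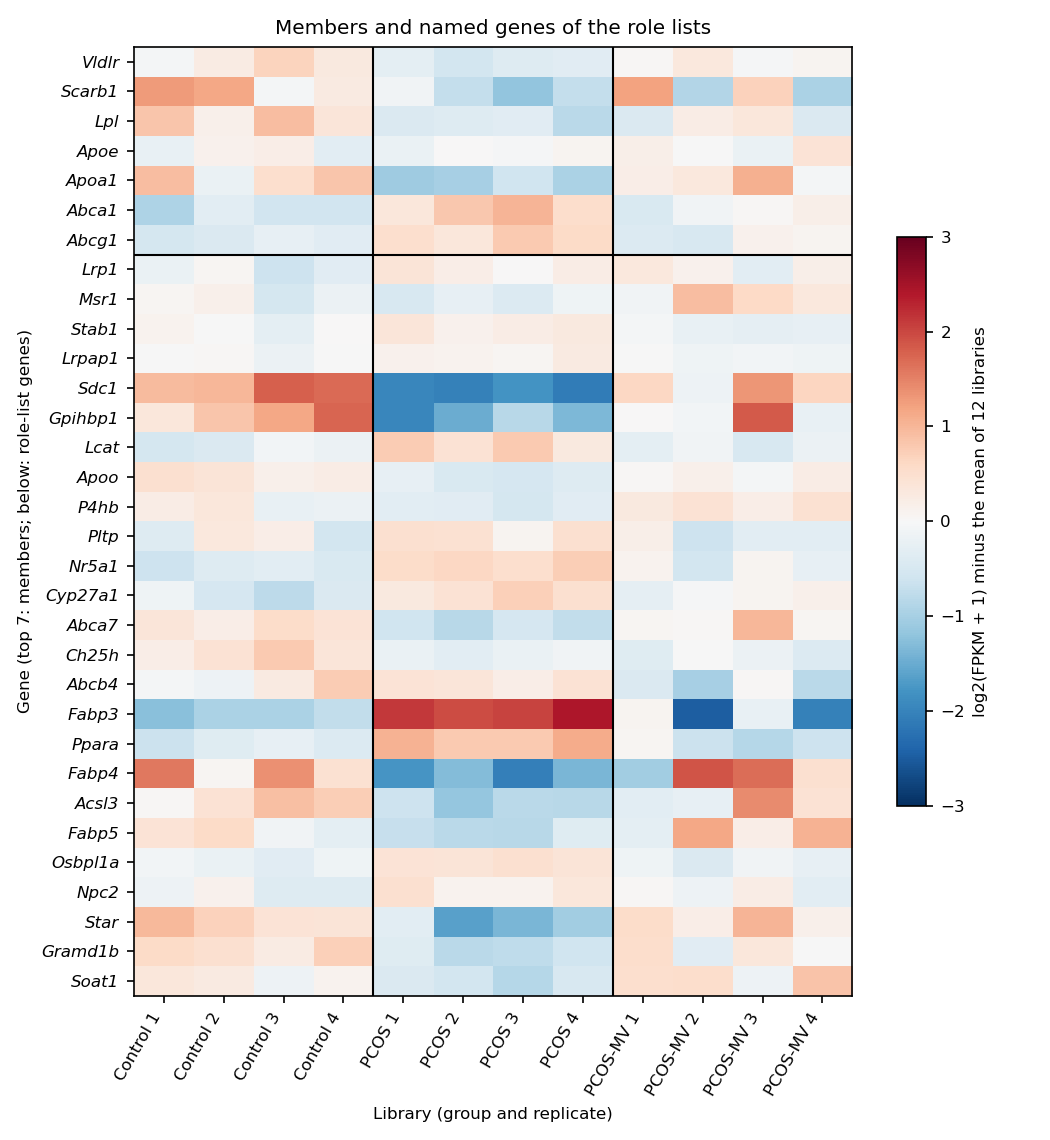
Level of the members and of the named partner genes (rows) in the 12 libraries (columns), as log2(FPKM + 1) minus the gene's mean over the libraries (colour scale). Fabp3, Ppara, Abca1 and Abcg1 are high and Sdc1, Gpihbp1, Fabp4 and Star low in the 4 PCOS libraries.

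Although no gene was named Cd36, 3 genes of the table with other names are described there as related to CD36. They were found after the values had been seen, are not members, and lie together on chromosome 4, with the spans of the other two inside that of RGD1565355. How reads were shared among them is not known here. RGD1565355 (ENSRNOG00000040108, chr4:14001761-14249749) read 16.0 to 21.4 FPKM in Control, 189 to 282 FPKM in PCOS and 23.9 to 27.7 FPKM in PCOS-MV. Its PCOS mean of 225 ± 43.8 FPKM (SD, n = 4) was 11.7 times the Control mean of 19.1 ± 2.53 FPKM. The log2 change was 3.47 (SE 0.15, adjusted p = 5.13e-06, limma) in PCOS against Control and -3.04 (SE 0.13, adjusted p = 1.36e-05, limma) in PCOS-MV against PCOS. All PCOS-MV libraries were still above all Control libraries (exact permutation p = 0.0286), a difference of 0.43 that did not pass (adjusted p = 0.459, limma). LOC103690020 (ENSRNOG00000005906, chr4:14212925-14241272) was lower, at 0.252 to 0.870, 4.67 to 6.18 and 0.401 to 1.91 FPKM, and was called in the same directions (1.95, adjusted p = 5.46e-05, and -1.59, adjusted p = 0.00127, limma). It passed the minimum through the PCOS libraries, with means of 0.689, 5.48 and 1.22 FPKM in Control, PCOS and PCOS-MV, so its calls are no separate support. AABR07059308.1 (ENSRNOG00000043176, chr4:14071507-14113255) ranged from 1.23 to 3.72 FPKM over all libraries and was not called.

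The tissue label was checked against markers of the cells an ovary sample can hold. Of 8 granulosa cell markers tested, 4 were higher in PCOS than in Control and 3 were lower in PCOS-MV than in PCOS, with sums of 656 to 915, 1097 to 1557 and 615 to 1124 FPKM in Control, PCOS and PCOS-MV. Of 10 macrophage markers, 2 were higher in PCOS than in Control, and 3 were higher and 2 lower in PCOS-MV than in PCOS, with sums of 310 to 444, 353 to 395 and 401 to 599 FPKM. Oocyte markers (5 tested, 0 called by limma in either comparison, with 0 and 2 at an unadjusted p under 0.05) summed to 14.7 to 27.4 FPKM over all libraries. Oviduct markers (5 tested, 1 higher in PCOS, 2 lower in PCOS-MV than in PCOS) summed to 28.9 to 100.4 FPKM in PCOS and 17.4 to 32.7 FPKM in PCOS-MV, and to 140.3 FPKM in Control replicate 3 against 11.4 to 18.7 FPKM in the other Control libraries. Without Control replicate 3, 6 members were still called between PCOS and Control and 0 between PCOS-MV and Control (limma). Pairs of libraries of 1 group correlated at r = 0.954 to 0.989 across genes, which are not independent replicates, no pair was identical, and the depth is unknown, though steps shared by the lowest values put the other 11 libraries at 0.918 to 1.12 times the depth of Control replicate 1.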

How the data were processed

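RNA-seq libraries of 12 rat ovaries (4 Control, 4 PCOS, 4 PCOS-MV; 1 library per rat by the study's methods) were analysed. The deposited unit is FPKM per gene, which the authors calculated from read counts and gene length. The methods name HISAT2 and featureCounts, whereas the submitters' processing notes list STAR 2.5.1b and HTSeq 0.6.0, and the genome build is not given in the sources used here. The table repeats each gene's values on every transcript line (26928 lines, 19730 genes), and 1 line per gene was kept. Columns with the authors' own fold changes and p-values were not used. The third group's columns carry another abbreviation (MG) and were matched to PCOS-MV as the 1 group left, whose treatment label is mogroside V.

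The 13430 genes whose average over the 12 libraries reached 1 FPKM entered limma 3.58.1 (R 4.3.3; lmFit, eBayes with trend) after a log2 transform with a constant of 1, using the 8 libraries of each pair of groups. The Benjamini-Hochberg adjusted p had to be under 0.05 over all genes tested. FPKM are not counts and the depth is unknown, so a count test was not used. Exact two-sided permutation tests were run for single genes. The members and lists were chosen with earlier results of these data known. Named genes were all members, in each partner list up to 2 genes with the largest rise and up to 2 with the largest fall among those called in a comparison, and the 2 genes most like each tested member. Alternatives were a constant of 0.1, no minimum, a minimum of 5 FPKM, 1 model over all libraries, a 2-fold requirement, the replicate number as a block, rescaling by median ratios, no variance trend, and leaving out each library. The fit was tested on simulated data. RefSeq promoter windows (GRCr8) were matched by symbol.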

Additional observations from a re-analysis of the deposited data

Results flagged for a closer look

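In groups of 4 libraries, 4 values of the named partner genes stood apart from the other 3 by Dixon's criterion at the 95% level. Gpihbp1 was at 45.5 FPKM in PCOS-MV replicate 3, against 10.2 to 12.1 FPKM in the other PCOS-MV libraries. Abca7 was at 7.71 FPKM in the same library, against 3.44 to 3.51 FPKM. P4hb was at 157.5 FPKM in PCOS replicate 3, against 181 to 184 FPKM in the other PCOS libraries, and Pltp was at 43.4 FPKM in that library, against 56.6 to 58.3 FPKM. In all, 99 groups of 4 (33 genes in 3 groups) were examined, where chance gives about 5.0 such values. None of the 4 was a value of a member gene.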

How the results depend on the processing

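Of the 21 results of member genes (7 genes in 3 comparisons), 13 kept their direction and their side of the threshold under every alternative. The calls among these were Lpl, Apoa1 and Abca1 between PCOS and Control and Apoa1 between PCOS-MV and PCOS, and the rest of the 13 were never called. Calls of Vldlr and Abcg1 in both comparisons, and of Abca1 between PCOS-MV and PCOS, were lost only under the 2-fold requirement. Requiring a 2-fold change left 907 genes called between PCOS and Control (3684 without it), 751 between PCOS-MV and PCOS (3448 without it) and 1 member in the latter. Between PCOS-MV and Control, 0 genes were called with a minimum of 5 FPKM or with the replicate block. The other fits that left out no library called 1 gene, lower in the model over 12 libraries and higher in the rest. Leaving out 1 library at a time gave 2762 to 3915, 2445 to 3354 and 1 to 4 genes in the comparisons of PCOS with Control, PCOS-MV with PCOS and PCOS-MV with Control, and 5 to 6, 4 to 4 and 0 to 0 members.

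With 1 library left out, differences near 0 changed sign. Between PCOS and Control the range was -0.068 to 0.107 for Apoe. Between PCOS-MV and PCOS it was -0.21 to 0.0015 for Lrp1 and -0.12 to 0.015 for Ch25h. Between PCOS-MV and Control it was -0.37 to 0.011 for Apoa1, -0.034 to 0.12 for Lcat, -0.61 to 0.25 for Fabp3, -0.28 to 0.016 for Ppara, -0.49 to 0.48 for Fabp4, -0.57 to 0.0045 for Acsl3 and -0.10 to 0.019 for Osbpl1a. None of these passed the threshold in any of those fits. The Scarb1 call between PCOS and Control was lost with 1 model over 12 libraries (adjusted p = 0.0632, limma).

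Replicate numbers are shared by the groups. Same-numbered libraries correlated in their deviations from the group means at r = -0.033 to 0.024 between PCOS and Control and -0.053 to 0.216 between PCOS-MV and Control. Between PCOS-MV and PCOS r was 0.101, 0.172, 0.136 and 0.035 for numbers 1 to 4, and the first 3 correlated best with their own number, a hint from the data that fell short of the rule that all pairs exceed 0.1. With the replicate block 2905, 3079 and 0 genes and 6, 4 and 0 members were called. Among partner genes the block ended the calls of Fabp5 (adjusted p = 0.0501) and Npc2 (0.0658) between PCOS and Control and of Lrpap1 (0.0853) between PCOS-MV and PCOS, brought P4hb between PCOS and Control past the threshold (0.0477, limma), and changed no other call of the named genes. Rescaling by median ratios moved the median of all genes by under 0.1 and gave 1920 genes higher and 1921 lower in PCOS than in Control, against 1594 and 2090. Depth is unknown here, which limits what can be said of genes near 0 FPKM such as Lipc.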
